A study of Mus musculus with 12 samples.

Results

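The translation efficiency (TE) of a gene was taken as its level among ribosome-protected fragments (RPF) relative to its level in total cytoplasmic RNA, and the question was which genes gained or lost TE when Rnmt was deleted in activated CD4 T cells. All 12 samples of the series entered the comparison: total RNA and RPF, each from 3 control and 3 Rnmt cKO samples. The TE change of a gene is the difference between its cKO over control change in RPF and its cKO over control change in total RNA, tested as the interaction of genotype and assay. Of 49585 genes in the count files, 10668 passed the filter on low counts and were tested. The 80 ribosomal protein genes and 26 other TOP genes among them served as a reference, and the other 10562 genes are described here by function. The reference does not hold every TOP gene. The paper reports binding sites of LARP1, a cap-binding protein of TOP mRNAs, for genes counted outside it, such as Npm3, Taf1d and Ncl. The snoRNA host RNAs are counted outside it too.

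Both genotypes were female mice on a C57BL/6J background with both Rnmt alleles floxed. The cKO samples were Rnmt fl/fl CD4cre + and the control samples Rnmt fl/fl CD4cre -, so the controls carried the floxed alleles without the recombinase. The CD4 promoter drives Cre from the double-positive thymocyte stage, and naive CD4 T cells were taken from lymph nodes and activated for 20 h on plate-bound anti-CD3 and anti-CD28. The labels number the samples of each group 1 to 3 without saying that each number is a separate animal, so the p-values measure the spread between these samples.

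RNMT is the methyltransferase that adds the methyl group to the guanosine of the mRNA cap. The methylated cap is bound by eIF4E for translation initiation and by the nuclear cap-binding complex, and it shields the transcript from decay. TOP mRNAs begin with a run of pyrimidines after the cap, encode much of the translation machinery, and are controlled together by growth signals. Naive CD4 T cells increase ribosome production and protein synthesis steeply on activation.

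Reads assigned to genes numbered 15079703 to 22629563 per total RNA sample and 4123271 to 10661356 per RPF sample, with cKO replicate 3 the shallowest RPF sample. The 10 T cell markers together reached 4015, 3987 and 3762 CPM, the counts scaled to each sample's total, in control total RNA and 3019, 3144 and 3510 CPM in cKO total RNA. In RPF they reached 6492, 5751 and 6101 CPM in control and 5192, 4666 and 4978 CPM in cKO. The T cell sum was lower in every cKO sample than in every control sample in both assays, and so were 4 of its members, Cd3d, Cd3g, Trac and Lck. Cd3e, Cd4, Cd28, the most abundant, and Trbc2 overlapped between genotypes in both assays. Thy1 was lower in every cKO sample in RPF alone, and Cd2 was higher in every cKO sample in total RNA, at 133, 140 and 129 CPM against 83.4, 82.3 and 103 CPM, and overlapped in RPF. Cd4 stood at 346, 323 and 306 CPM in control and 291, 279 and 323 CPM in cKO total RNA, against 3.58 to 23.4 CPM for Cd8a over all 6 samples. The 12 B cell markers summed to 301, 296 and 317 CPM in control total RNA and to 363, 369 and 221 CPM in cKO total RNA, with Ighm the most abundant. Ighm itself was at 284, 284 and 264 CPM in control and 236, 200 and 191 CPM in cKO, and the other 11 markers summed to 16.5, 11.9 and 53.2 CPM in control and 127, 169 and 29.8 CPM in cKO total RNA. In RPF the B cell sum was 136, 118 and 218 CPM in control and 385, 466 and 107 CPM in cKO samples 1 to 3. Without Ighm the RPF sums were 23.4, 12.2 and 80.3 CPM and 225, 286 and 42.2 CPM. With or without Ighm, cKO samples 1 and 2 had the highest sums in both assays, and without it control sample 3 stood above the other controls and above cKO sample 3. The 7 regulatory T cell markers, with Il2ra the most abundant, summed to 595, 594 and 563 CPM in control and 802, 884 and 924 CPM in cKO total RNA, and to 786, 735 and 773 CPM against 1162, 1222 and 1178 CPM in RPF. Of the 7, 5 were higher in every cKO sample than in every control sample in both assays: Il2ra, Tnfrsf18 and Tnfrsf9, which activated T cells also express, and the less abundant Ikzf2 and Lrrc32. Ikzf2 was at 8.40, 10.8 and 10.5 CPM in control and 22.2, 22.1 and 21.9 CPM in cKO total RNA, and Lrrc32 at 1.94, 1.74 and 1.88 CPM against 3.38, 6.22 and 2.21 CPM. Foxp3, the defining transcription factor, was at 0.892, 0.793 and 0.680 CPM in control and 0.862, 0.372 and 0.398 CPM in cKO total RNA, and at 5.16, 6.48 and 6.21 CPM against 4.43, 5.51 and 6.06 CPM in RPF, and the genotypes overlapped. Ctla4 was at 168, 162 and 131 CPM against 117, 77.0 and 138 CPM in total RNA and at 152, 150 and 115 CPM against 109, 65.6 and 116 CPM in RPF. The 12 myeloid markers, with Mpeg1 the most abundant, summed to 2.10, 2.48 and 2.72 CPM in control and 7.16, 5.37 and 3.54 CPM in cKO total RNA, and to 4.97, 6.19 and 5.36 CPM against 12.5, 13.6 and 6.79 CPM in RPF. The 6 NK markers, with Ncr1 the most abundant, summed to at most 0.472 CPM in control and 1.33 to 2.18 CPM in cKO total RNA, and to at most 0.852 CPM against 1.46 to 2.85 CPM in RPF. In the regulatory T cell, myeloid and NK lists every cKO sum lay above every control sum in both assays. Single members could differ from their sum: Ctla4 and Foxp3 overlapped between genotypes, and the myeloid marker Cd68 was lower in every cKO sample in RPF, at 2.75, 2.66 and 2.18 CPM against 4.41, 4.13 and 3.04 CPM. The 6 CD8 T cell markers overlapped between genotypes, at 18.8 to 46.5 CPM in total RNA and 23.5 to 63.2 CPM in RPF. No marker was at 0 in all 12 samples, and the part of these cells in the results below was not tested. According to the paper, cells for the footprinting experiment were sorted by magnet with a kit for mouse naive CD4 T cells.

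The deleted gene was checked first. Rnmt was at 95.5, 94.1 and 94.4 CPM in control total RNA and at 29.5, 32.5 and 30.5 CPM in cKO total RNA. In RPF it was at 104, 88.2 and 99.3 CPM in control and at 10.6, 10.4 and 9.69 CPM in cKO. The genotypes did not overlap in either assay, and the drop was larger in RPF, with a TE log2 fold change of -1.62 ± 0.11. The paper reports that deletion removes an exon of Rnmt, with loss of its RNA reads in naive cKO cells. The counts per gene do not separate intact from deleted transcripts. The TE value of Rnmt is thus not read as a change in translation of the intact mRNA, and the part of the deletion in it was not tested. The values after ± are standard errors (SE) of the edgeR fit, with n = 3 per group, throughout.

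Outside the reference genes, TE rose in 289 genes and fell in 700 genes at an adjusted p below 0.05, which is 2.74% and 6.63% of the 10562 tested. These shares are the background against which each functional list is read. They cover all tested genes, those that are not protein-coding or have few reads included. For protein-coding genes alone they were 2.47% and 7.03%. In the fit limited to an average log2 CPM of at least 4, 433 of 7444 genes rose and 695 fell. Well-expressed genes were thus called more often, so a share a little above the background need not set a list apart. The part of expression level in the list shares was not tested. Among protein-coding genes the fall was the more frequent change, with 694 falls and 244 rises of 9879. It was also the larger one, with 93 falls and 9 rises beyond 2-fold. The median of the 700 falls was -0.63 on the log2 scale and that of the 289 rises 0.49. With 2 samples left in a genotype, rises outside the reference numbered 80 without control replicate 1, 78 without control replicate 2, 178 without control replicate 3, 94 without cKO replicate 1 and 130 without cKO replicate 2. Falls numbered 414, 442 and 417 without control replicate 1, control replicate 2 and cKO replicate 1. Without cKO replicate 3, the shallowest in RPF, both counts were higher than with all samples, at 308 rises and 811 falls.

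The total RNA and RPF comparisons share their samples with the TE comparison, so their changes are given side by side and no relation between them is tested. Genes with a fall in TE had a median log2 fold change of 0.55 in total RNA (quartiles 0.35 and 0.81) and of -0.08 in RPF (quartiles -0.24 and 0.08). Genes with a rise in TE had a median of -0.40 in total RNA (quartiles -0.73 and -0.13) and of 0.19 in RPF (quartiles -0.12 and 0.46). The TE change is itself the RPF change minus the total RNA change. Choosing falls in TE thus favours genes with higher total RNA or lower RPF, and choosing rises the reverse. The medians describe the called genes, and nothing is drawn from them. The values here, the CPM of Rnmt and the log2 ratios below are relative to each sample's total after TMM scaling. TMM adjusts the totals of the samples within each assay. The marker CPM used the plain total. The amount of mRNA per cell enters none of these values.

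The 12 rises and 12 falls with the smallest p among well-expressed protein-coding genes were named by a fixed rule, with at least 4 for the average log2 CPM and no overlap between genotypes, so that the gap between genotypes in these genes follows from the rule. RNMT acts on the cap that precedes the first transcribed base, so the first 25 bases from the RefSeq start (build GRCm38.p6, read on the transcript strand) are shown for the first 3 of each direction, in order of p, whose RefSeq start lay within 5 bases of a transcript start of the GENCODE annotation. Capitals mark the first 5 bases of each. Sh2d2a had no entry in the RefSeq table, and the entries for Qars and Thumpd1 began 51 and 2821 bases from the nearest GENCODE start. Closeness to an annotated start does not settle which base comes first in these cells. The RefSeq starts of the TOP genes Eif4b and Eef1a1 lay 0 bases from a GENCODE start and did not open with C followed by a run of pyrimidines.
Cox7a2l, TE increased, chr17:83514309-83514333, minus strand: GGTCCttttctagggcggtcgcaca
Erh, TE increased, chr12:80644087-80644111, minus strand: AAAAGacgactggtgtcgctgttgt
Ssr4, TE increased, chrX:73787023-73787047, plus strand: ATCTTggggaggggaaggctgagaa
Dnttip2, TE decreased, chr3:122274414-122274438, plus strand: GAAAGatggtggtcaccaggtccgg
Wdr43, TE decreased, chr17:71616215-71616239, plus strand: GCCTGcgcccgggcgaacacgtggc
Gcc2, TE decreased, chr10:58255526-58255550, plus strand: CCTGAagaggcggtggaggcagccg

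Among the rises, Qars, the glutaminyl-tRNA synthetase, had log2 ratios of RPF to total RNA of 0.50, 0.49 and 0.48 in control and 1.05, 1.38 and 1.35 in cKO. Each ratio takes the RPF and total RNA samples of the same number, a match that the labels do not state. Cox7a2l, a factor of respiratory supercomplex assembly, had -2.90, -2.92 and -2.72 in control and -1.81, -1.96 and -1.75 in cKO. Erh, a small conserved nuclear protein, had 0.82, 0.65 and 0.66 in control and 1.34, 1.40 and 1.47 in cKO. TE rose by 0.77 ± 0.11 for Qars, 0.99 ± 0.14 for Cox7a2l and 0.69 ± 0.11 for Erh. The next were Ssr4, a subunit of the translocon-associated complex of the endoplasmic reticulum, at 0.79, 0.79 and 0.92 against 1.41, 1.60 and 1.32, and Slc20a1, a phosphate transporter, at -1.61, -2.13 and -1.82 against -0.99, -1.21 and -1.0. Chchd3, a component of the mitochondrial contact site complex, had -0.41, -0.33 and -0.23 in control and 0.26, 0.31 and 0.04 in cKO. TE rose by 0.61 ± 0.09, 0.76 ± 0.13 and 0.52 ± 0.09 in these 3 genes. The route to the rise differed: in Qars, Cox7a2l, Ssr4 and Chchd3 total RNA was lower in the cKO (-0.88, -1.02, -0.73 and -0.49) and RPF was within 0.12 of 0. In Erh and Slc20a1 both assays were higher, RPF (1.13 and 1.00) more than total RNA (0.45 and 0.23). The other 6 of the 12 rises were Slc25a4 (the mitochondrial ADP/ATP carrier), Ostf1, Igbp1, Armc10, Pdha1 (a subunit of pyruvate dehydrogenase) and Rpl22l1, a paralog of a ribosomal protein gene that is not in the reference list. Their TE changes were 0.40 to 0.85.

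Among the falls, Dnttip2, a nucleolar protein of the small subunit processome, had log2 ratios of 1.05, 0.83 and 0.73 in control and -1.29, -1.07 and -1.06 in cKO. Thumpd1, the adaptor of tRNA cytidine acetylation, had -0.09, -0.08 and -0.05 in control and -1.50, -1.52 and -1.70 in cKO. Sh2d2a, the T cell-specific adaptor protein, had 0.88, 0.96 and 0.85 in control and -0.68, -0.61 and -0.58 in cKO. TE fell by 2.01 ± 0.10, 1.50 ± 0.08 and 1.52 ± 0.08 on the log2 scale. Wdr43, a further processome subunit, had 0.00, -0.10 and -0.06 in control and -1.59, -1.44 and -1.59 in cKO. Gcc2, a Golgi tethering protein, had -0.07, 0.08 and -0.18 in control and -2.23, -1.85 and -1.82 in cKO. Zpr1, a zinc finger protein that binds translation elongation factor 1A, had 0.64, 0.73 and 0.42 in control and -1.03, -0.89 and -0.99 in cKO. TE fell by 1.49 ± 0.09, 1.92 ± 0.12 and 1.57 ± 0.10 in these 3 genes. Dnttip2, Thumpd1, Wdr43 and Zpr1 had higher total RNA in the cKO (1.91, 1.68, 1.58 and 1.36) and RPF within 0.21 of 0, while Gcc2 and Sh2d2a combined higher total RNA (1.01 and 0.97) with lower RPF (-0.91 and -0.55). The remaining 6 falls were Rnmt itself, Snw1 (a splicing and transcription coregulator), Smarcc2 (a BAF chromatin remodelling subunit), Tex10, Tpr (the nuclear pore basket) and Tox4. Rnmt differed from the other 11 in that its total RNA was lower in the cKO. It is also the deleted gene, so its fall is not read as a change in translation of the intact mRNA.

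**Figure D1:**
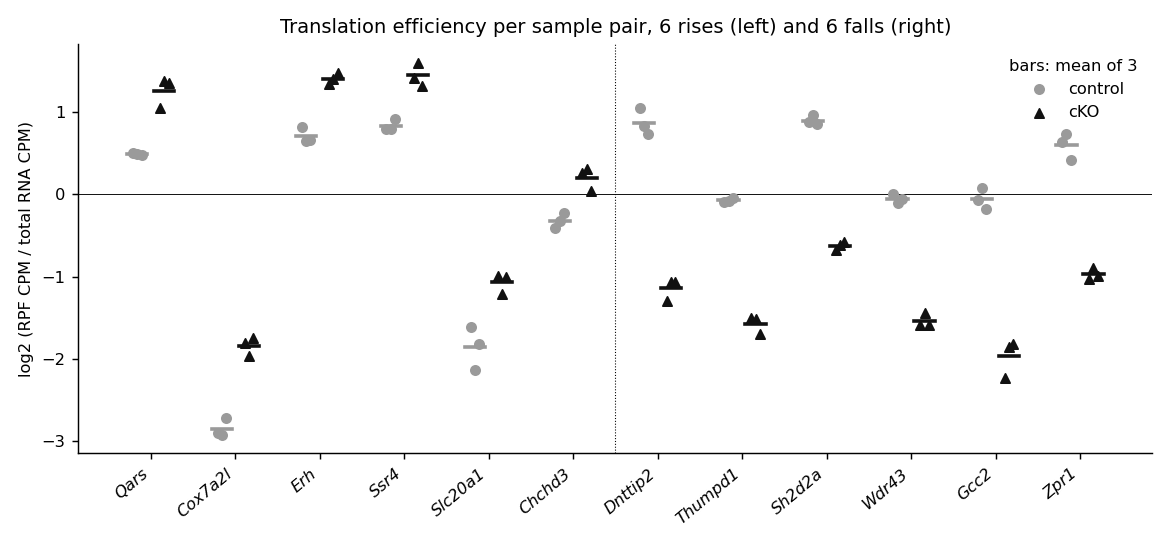
Log2 ratio of RPF to total RNA (CPM, y axis) for each same-numbered pair of samples, in control (circles) and cKO (triangles), for the first 6 rises and 6 falls in TE; horizontal bars are means of 3. The genes were chosen for genotypes that do not overlap; the smallest and largest TE changes among them are 0.52 in Chchd3 and -2.01 in Dnttip2.

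**Figure D2:**
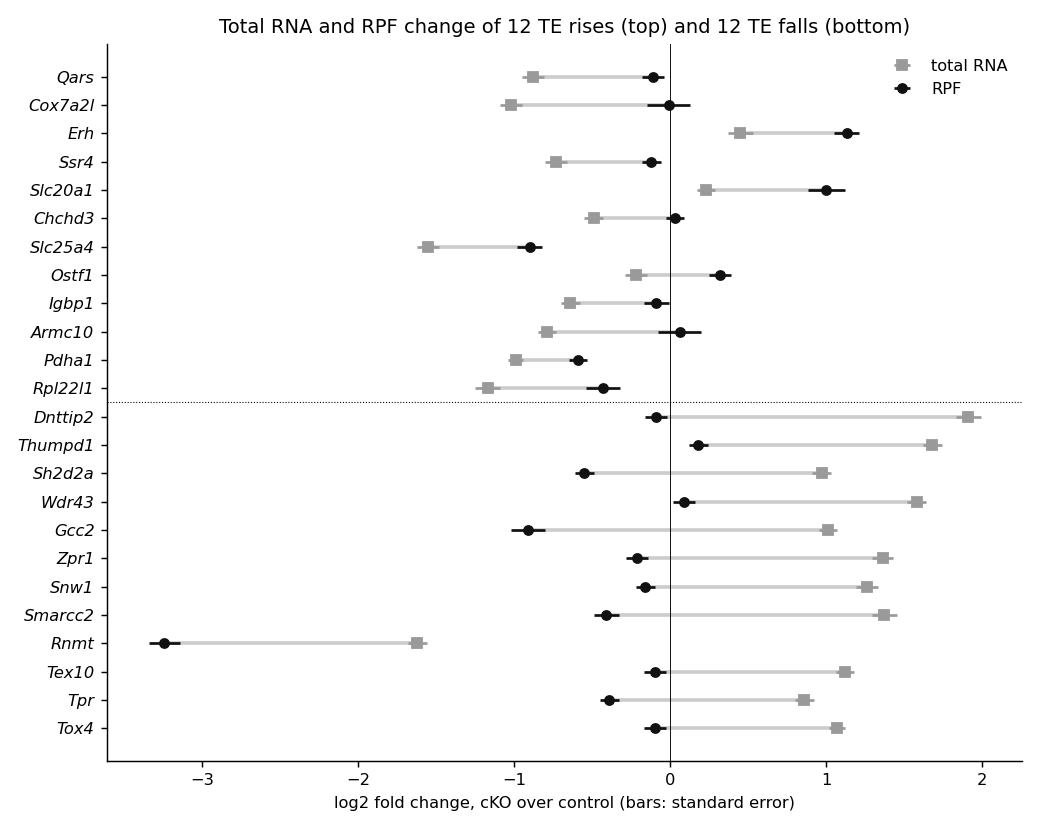
Log2 fold change of cKO over control in total RNA (squares) and RPF (circles) with standard errors, for the 12 rises (top) and 12 falls (bottom) in TE. The falls other than Rnmt have total RNA changes of 0.86 to 1.91 and RPF changes of -0.91 to 0.18.

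Production of ribosomes held the highest share of falls among the 67 functional lists with at least 8 tested members. Of 107 nucleolar and ribosome biogenesis factors, 48 fell in TE (44.9%, against the background of 6.63%) and 3 rose, with a list median of -0.34 beside 0.03 for all genes outside the reference. After Dnttip2 and Wdr43, Noc2l, which escorts pre-60S particles, fell by 1.14 ± 0.09 (edgeR adjusted p = 6.9e-06). The rises were Npm3, a nucleoplasmin family chaperone (0.50 ± 0.10), Rsl24d1 (0.46 ± 0.10) and Ppan (0.32 ± 0.09), both needed for the large subunit, and numbered 0 without control replicate 1 or cKO replicate 1 and 1 without control replicate 2. The list's median log2 fold change was 0.51 in total RNA and 0.14 in RPF. Without 1 sample pair at a time, 34 to 47 of the list were called as falls. The ribosomal proteins, which these factors assemble into subunits, went the other way in the reference, where 45 of 80 rose and none fell. DEAD-box and DEAH-box helicases, ATP-driven remodellers of RNA, fell in 16 of 50 (32%) and rose in none. The lists share genes: 12 of the tested helicases are also nucleolar factors, and 10 of these fell (83.3%), against 6 of the 38 others (15.8%). Dhx29, which helps the small subunit scan structured leaders, fell by 1.14 ± 0.10 and Ddx21, which acts in rRNA transcription and processing, by 1.20 ± 0.14. The helicase count was 9, 8 and 10 without control replicate 1, control replicate 2 and cKO replicate 1.

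Factors of translation itself, other than the TOP genes of the reference, also lost TE more often than the background. Of 40 initiation factors, 10 fell (25%) and 1 rose. Beside Dhx29, Abce1, the ribosome recycling ATPase, fell by 0.62 ± 0.10, and Eif4ebp2, a repressor of eIF4E, by 0.60 ± 0.11. The count of falls was 6 without control replicate 1 or cKO replicate 1. Of 22 elongation, termination and ribosome rescue factors, 8 fell (36.4%) and 1 rose, and 7 or 8 fell without any 1 pair. They included Etf1, the termination factor eRF1, at -0.91 ± 0.11, Zfp598, the sensor of collided ribosomes, at -0.90 ± 0.12, and Nemf, which marks stalled 60S subunits, at -0.62 ± 0.09. Tcf25, a further member of the ribosome quality control complex, was the rise, at 0.51 ± 0.10. The subunits of eIF3, a group singled out after its values were seen, were split. Of 12 tested, Eif3a, Eif3c, Eif3d and Eif3g fell by 0.40 to 0.70 (33.3%), while Eif3f, Eif3i and Eif3k rose by 0.49 to 0.60 (25%). Eif3f and Eif3k belong to the TOP reference and Eif3i does not. Of 22 cytosolic aminoacyl-tRNA synthetases and their scaffolds, 3 fell (13.6%) and 2 rose (9.09%). Eprs, the glutamyl-prolyl enzyme, was at -0.90 ± 0.10, opposite in sign to Qars, with which it sits in the multi-synthetase complex, and the scaffold Aimp1 was at 0.35 ± 0.08. Just 1 of the 3 falls was called without control replicate 1, 2 or 3 or cKO replicate 1. The 36 subunits and factors of RNA polymerases I and III had 5 falls (13.9%) and 1 rise, with Polr1b, the second subunit of RNA polymerase I, at -0.94 ± 0.12. Of 59 tRNA and rRNA modification enzymes 8 fell (13.6%) and 3 rose (5.08%), led by Thumpd1 and by Pus3, a pseudouridine synthase (-1.11 ± 0.10), though the list median was 0.07. Their falls numbered 4, 5 and 4 without control replicate 1, control replicate 3 and cKO replicate 1, and the rises 0 or 1 without any pair but cKO replicate 3.

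**Figure D3:**
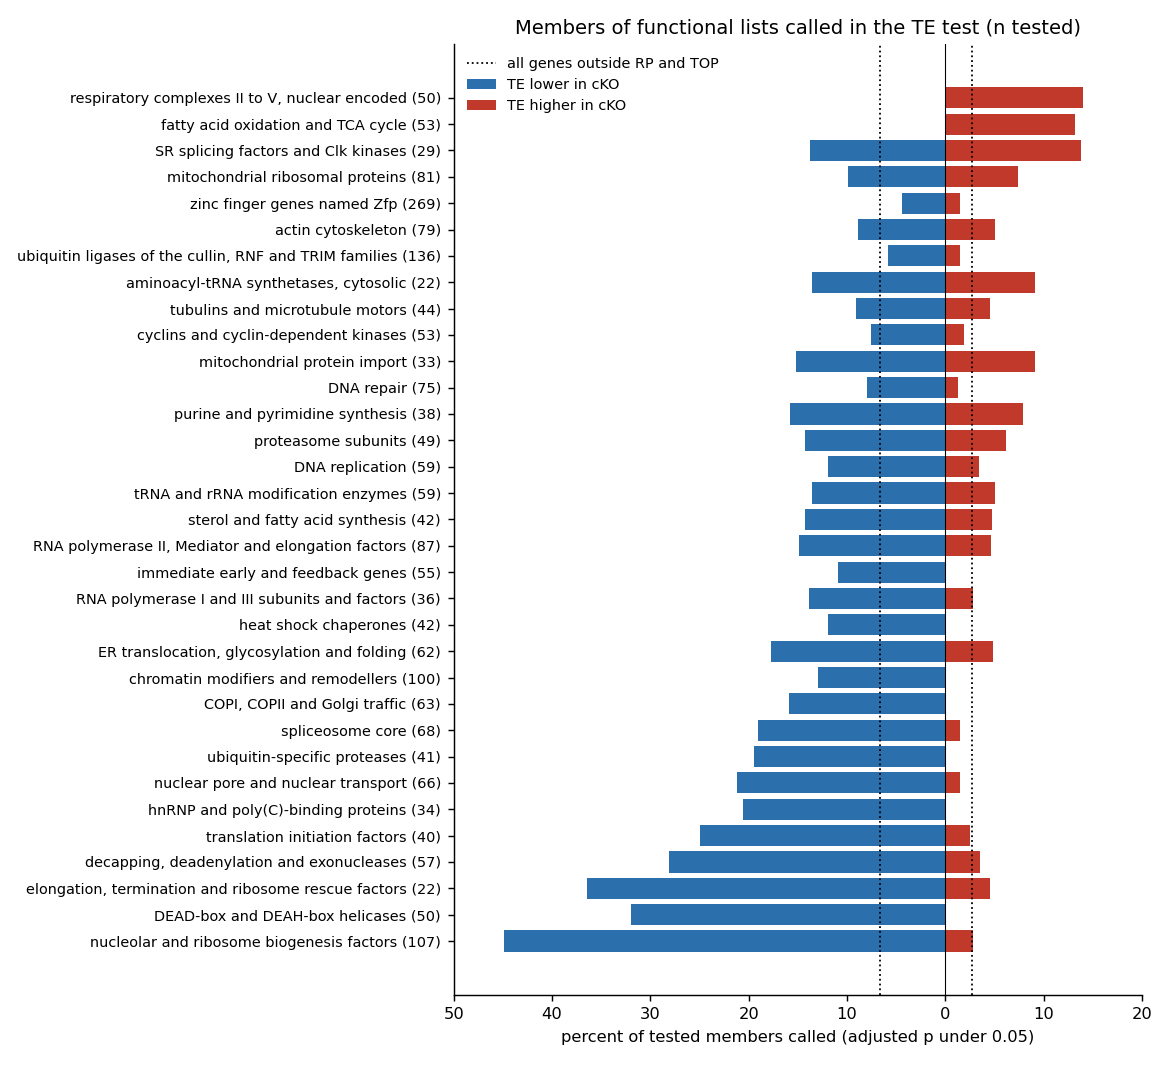
Percent of tested members (x axis, falls to the left and rises to the right) called in the TE test in each functional list with at least 20 tested and 5 called members; the number tested is in brackets. Dotted lines mark the shares of all genes outside the reference, 6.63% for falls and 2.74% for rises, and nucleolar factors reach 44.9% in falls.

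Genes for the later life of mRNA showed falls and few rises. Of 57 genes for decapping, deadenylation and exonucleolytic decay 16 fell (28.1%) and 2 rose. Exosc10, a nuclear exosome ribonuclease, fell by 1.05 ± 0.11, and Xrn2, the nuclear 5′ to 3′ exonuclease, by 0.72 ± 0.08. Dcp2, the decapping enzyme, was 1 of the 2 rises (0.48 ± 0.10). The falls of this list numbered 9, 10 and 10 without control replicates 1, 2 and 3. None of its 2 rises was called without control replicate 3 or cKO replicate 1, and 1 was without control replicate 1 or cKO replicate 3. Of 20 genes listed for cap synthesis and cap binding, with Rnmt left out and LARP family genes included, 4 fell (20%) and none rose. These were Tgs1, which hypermethylates the caps of small nuclear RNAs (-0.90 ± 0.21), Ncbp1, the large subunit of the nuclear cap-binding complex (-0.63 ± 0.09), Larp1, the repressor that binds the cap and TOP sequence (-0.65 ± 0.18), and Larp4 (-1.28 ± 0.15). All 4 had higher total RNA in the cKO, by 0.53 to 1.52, and 2 of the 4 were called without control replicate 1, control replicate 2, cKO replicate 1 or cKO replicate 2. Of 23 regulators of AU-rich and stem-loop decay 4 fell (17.4%), led by Zfp36l1 at -1.13 ± 0.17.

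In splicing, falls were spread over the core and its regulators. Of 68 core spliceosome genes 13 fell (19.1%) and 1 rose, and 8 fell without control replicate 1. Sf3b4, a subunit of the U2 particle, fell by 1.57 ± 0.22, Aqr, an intron-binding helicase, by 0.74 ± 0.12, and Snrpe, a core Sm protein, was the rise (0.52 ± 0.12). Of 34 hnRNP and poly(C)-binding protein genes 7 fell (20.6%) and none rose, with Hnrnpl at -1.26 ± 0.16, Hnrnpu at -1.21 ± 0.18 and Pcbp1, an intronless gene, at -2.47 ± 0.30. Of these 7, 4 were called without control replicate 2 or cKO replicate 1. Of 29 SR factors and Clk kinases 4 fell and 4 rose (13.8% each). The falls were the large SR-related proteins Srrm1 (-1.39 ± 0.22) and Srrm2 (-1.50 ± 0.23), Pnn (-1.57 ± 0.13) and Acin1 (-0.45), and the rises were Srsf1 (0.41 ± 0.09), Srsf5, Srsf6 and Luc7l3. The rises numbered 1 without control replicate 1, 2 or 3 or cKO replicate 2 and 0 without cKO replicate 1. Of 66 genes for the nuclear pore and nuclear transport 14 fell (21.2%) and 1, Aaas, rose (0.33 ± 0.08). Tpr fell by 1.25 ± 0.09 and Nup160, a scaffold nucleoporin, by 1.17 ± 0.17. The pore count was 5, 6 and 8 without control replicate 1, control replicate 2 and cKO replicate 1. None of 24 genes of m6A methylation and the S-adenosylmethionine cycle, which provides RNMT's methyl donor, passed the test, and their TE changes lay between -0.58 and 0.30.

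Genes of mitochondrial respiration had rises in TE and no falls. Of 86 nuclear-encoded genes of the respiratory chain and ATP synthase 11 rose (12.8%, against 2.74%) and none fell. A TE change above 0 was seen in 69, with a median of 0.18. Of complex I, Ndufb5 rose by 0.47 ± 0.10, Ndufa6 by 0.50 ± 0.13 and Ndufa10 by 0.40. Of complexes II to V, Cox7a2l and Cox4i1 (0.60 ± 0.12), a subunit of cytochrome c oxidase, led the rises. Their medians were -0.25 and -0.19 in total RNA and -0.09 and 0.03 in RPF. Of 53 genes of fatty acid oxidation and the TCA cycle 7 rose (13.2%, against 2.74%) and none fell, with Pdha1 at 0.40 ± 0.07, Acat1, a mitochondrial thiolase, at 0.39 ± 0.10 and Hsd17b10 at 0.38. These counts rested on few genes near the threshold: without control replicate 2, complex I had 1 rise, complexes II to V 2 and fatty acid oxidation and the TCA cycle 1, and without control replicate 1 they had 0, 4 and 1. Without control replicate 3 fatty acid oxidation and the TCA cycle had 3. Without cKO replicate 1 the 3 counts were 2, 3 and 2 and without cKO replicate 2 they were 1, 2 and 1, while without cKO replicate 3 complexes II to V had 11. The medians of the 3 lists were above 0 under all 16 alternative settings, from 0.08 to 0.27. The 8 tested mitochondrially encoded mRNAs, which are translated inside the organelle and carry no such cap, had no call, with mt-Nd3 the nearest at 2.20 ± 0.75 (edgeR adjusted p = 0.085).

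Other mitochondrial genes went both ways. Of 33 genes of mitochondrial protein import 5 fell (15.2%) and 3 rose (9.09%). Grpel1, the exchange factor of the matrix Hsp70 (-0.80), Pmpca, a subunit of the mitochondrial processing peptidase (-0.88 ± 0.10), and Timm8b (-0.85 ± 0.12) fell. Tomm20, the outer membrane receptor (0.50 ± 0.12), and Oxa1l, the inner membrane insertase (0.48 ± 0.11), rose with Timm44. Without control replicate 1, control replicate 2 or cKO replicate 2 none of the 3 rises was called and without cKO replicate 1 just 1, while 5 or 6 falls were called in every such fit. Of 81 mitochondrial ribosomal proteins 8 fell (9.88%) and 6 rose (7.41%), with a median of 0.10. The falls numbered 4 without control replicate 3 or cKO replicate 1 and 5 without control replicate 1, control replicate 2 or cKO replicate 3. The rises numbered 0 without control replicate 2, 1 without cKO replicate 1 and 2 without control replicate 1 or cKO replicate 2. Of 38 genes of purine and pyrimidine synthesis 6 fell (15.8%) and 3 rose (7.89%). Ctps (CTP synthase, -0.80 ± 0.09), Umps, which makes UMP (-0.86 ± 0.10), and Atic of the purine branch (-0.53) fell, and the rises were nucleoside and nucleotide kinases, Cmpk1 (0.32 ± 0.09), Guk1 (0.43 ± 0.12) and Adk (0.38 ± 0.10). No rise was called in the list without control replicate 1, 2 or 3 or cKO replicate 1, and 6 were called without cKO replicate 3. In polyamine synthesis, Srm, spermidine synthase, fell by 0.91 ± 0.14 and Oaz1, the antizyme that lowers polyamine synthesis, was at 0.59 ± 0.17 (edgeR adjusted p = 0.049). Srm was called in every fit without 1 pair and Oaz1 only in that without control replicate 3. Of 42 genes of sterol and fatty acid synthesis 6 fell (14.3%) and 2 rose (4.76%), with Cyp51 at -0.51 ± 0.10, Insig1 at -0.52 ± 0.11 and Elovl6 at 0.64 ± 0.18. The falls numbered 3, 3 and 2 without control replicate 1, control replicate 2 and cKO replicate 1. None of the 2 rises was called without control replicate 1, 2 or 3 or cKO replicate 1. Without cKO replicate 2 or cKO replicate 3, 1 of them was called. Of 33 genes of glycolysis and the pentose phosphate path 1 rose (Pgls) and 1 fell (Hk1).

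Lists of T cell function held few calls. Of 55 immediate early and feedback genes 6 fell (10.9%, against the background of 6.63%) and none rose, and 4 of the 6 were called without control replicate 1, 2 or 3 or cKO replicate 1. Rgs2, a regulator of G protein signalling, fell by 2.00 ± 0.24, the transcription factor Egr1 by 1.36 ± 0.27 and Ier2, an intronless early gene, by 1.11 ± 0.22. Rgs2 and Egr1 were higher in cKO total RNA, by 2.90 and 1.61, and their RPF changes were 0.91 and 0.25. In the NF-kB group of 32 genes 3 fell (9.38%) and 1 rose (3.12%). The inhibitor Nfkbia (-0.86 ± 0.12), Nfkb2 (-0.77 ± 0.14) and Relb (-0.68 ± 0.16) fell and Traf3 rose (0.55 ± 0.16). Here too total RNA was higher, by 1.52 for Nfkbia, 1.85 for Nfkb2 and 0.84 for Relb. Of 53 genes of the T cell receptor complex and proximal signalling 3 fell (5.66%, below the background) and none rose: Sh2d2a, Lcp2 (the adaptor SLP-76, -0.64 ± 0.15) and Plcg1 (-0.43 ± 0.11). Sh2d2a alone was called without control replicate 1, control replicate 2 or cKO replicate 1, and 5 were called without cKO replicate 3. Among 11 effector cytokines Il16 (-0.94 ± 0.12) and Tgfb1 (-0.83 ± 0.21) fell (18.2%, against 6.63%). Cd40lg, the ligand for B cell help, fell by 0.78 ± 0.18 among 27 TNF superfamily genes, with RPF lower by 1.62 and total RNA lower by 0.85 on the log2 scale. None of 29 genes of the CD28 family and inhibitory receptors passed the test, with TE changes of -0.37 to 0.44. Of 31 cytokine receptors 1 rose (Crlf2), of 46 lineage and naive-state transcription factors 1 fell (Zbtb7b), and of 57 interferon-stimulated genes 3 fell (5.26%), or none without control replicate 1. Atf4, the transcription factor of the integrated stress response, was at 0.51 ± 0.14, the 1 call among 20 genes of that response (5%, against 2.74%), and of the 6 fits without a pair it was called only in that without control replicate 3.

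**Figure D4:**
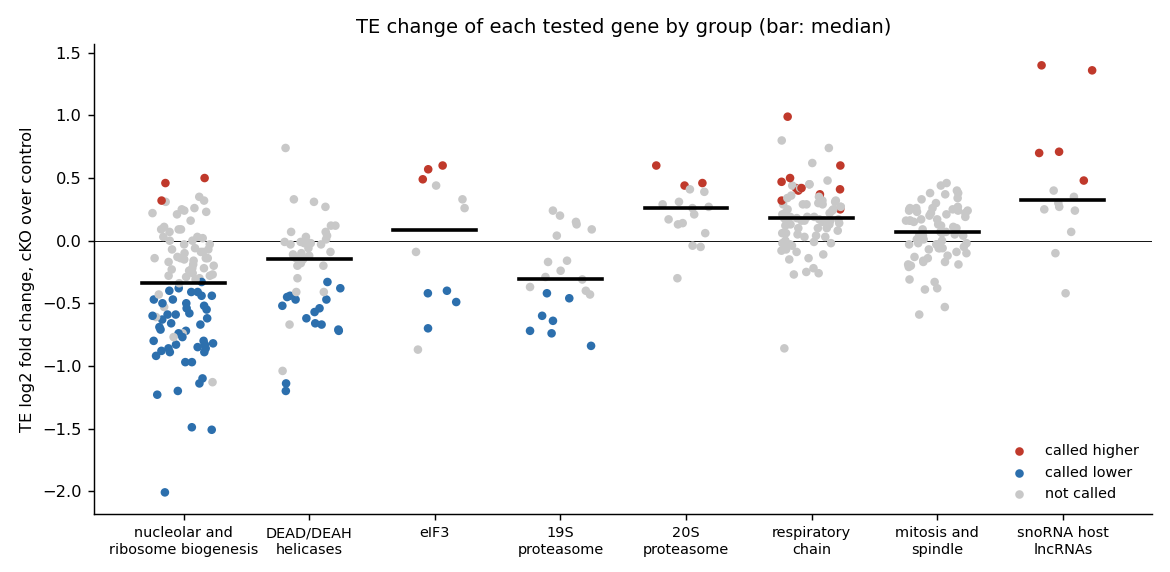
TE log2 fold change of cKO over control (y axis) for each tested gene of 8 groups, coloured by the call, with the group median as a bar. Nucleolar factors, helicases and 19S proteasome subunits hold calls below 0, respiratory chain genes, 20S subunits and snoRNA host RNAs hold calls above 0, and mitotic genes hold none. Nucleolar factors also hold 3 calls above 0.

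In the cell cycle, none of 73 mitotic and spindle genes passed the test, with a median of 0.07 and a range of -0.59 to 0.46. Of 59 DNA replication genes 7 fell (11.9%) and 2 rose (3.39%). None of the 2 rises was called without control replicate 1, control replicate 2, cKO replicate 1 or cKO replicate 2. Mcm3, Mcm4 and Mcm6 of the replicative helicase, singled out after the values were seen, fell by 0.33 to 0.56, and the number of falls in the list was 2 without control replicate 1, 4 without control replicate 2, cKO replicate 1 or cKO replicate 3, and 3 without control replicate 3. Of 51 replication-dependent histone genes, whose mRNAs end in a stem-loop, 1 fell, the linker histone gene Hist1h1e (-1.99 ± 0.33), whose reads can be lost to near-identical copies. Among 100 chromatin modifiers and remodellers 13 fell (13%) and none rose, including Smarcc2 (-1.78 ± 0.11), Chd4, the ATPase of the NuRD complex (-0.92 ± 0.09), and Kat7, a histone acetyltransferase (-0.80 ± 0.09). Chromatin falls numbered 7, 8, 6 and 7 without control replicates 1, 2 and 3 and cKO replicate 1, and 21 without cKO replicate 3. In RNA polymerase II transcription 13 of 87 fell (14.9%) and 4 rose (4.6%), with Med12 of the Mediator kinase module at -0.90 ± 0.11 and Taf12 of TFIID at 0.73 ± 0.14. That count of falls was 7, 6, 8 and 5 without control replicates 1, 2 and 3 and cKO replicate 1, and the rises numbered 1 or 2 without any pair but cKO replicate 3. Of 269 zinc finger genes named Zfp, 12 fell (4.46%) and 4 rose (1.49%), both below the background, with 6 falls without cKO replicate 1 and 1 to 3 rises without any 1 pair.

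The core and the regulator of the proteasome are given apart, a split made after the values were seen. Of 17 subunits of the 20S core 3 rose (17.6%, against the background of 2.74%) and none fell. The rises were Psma4, Psma5 and Psmb1, by 0.44 to 0.60. Of 21 subunits of the 19S regulator 7 fell (33.3%, against 6.63%) and none rose, led by Psmd1 (-0.72 ± 0.08), Psmc5 (-0.64 ± 0.09) and Psmd2 (-0.60 ± 0.10). The medians were 0.26 and -0.31, and the groups overlapped, with TE changes of -0.30 to 0.60 in the core and -0.84 to 0.24 in the regulator. Over the whole proteasome list of 49 genes, falls numbered 4 without control replicate 1, control replicate 3 or cKO replicate 1. The 3 rises became 0 without control replicate 2, 1 without cKO replicate 1 and 5 without cKO replicate 3. Of 41 ubiquitin-specific proteases 8 fell (19.5%) and none rose, with Usp15 at -1.13 ± 0.10 and Usp4 at -0.91 ± 0.08. Among 136 ubiquitin ligases 8 fell (5.88%) and 2 rose (1.47%), both below the background, with Rnf40, a histone H2B ligase, at -1.24 ± 0.11, and 5 fell without control replicate 2 or cKO replicate 1. Of the 2 ligase rises 1 was called without control replicate 3 or cKO replicate 2, and none without any other pair. Of 42 heat shock chaperones 5 fell (11.9%) and none rose, led by the Hsp40 genes Dnajb1 (-1.30 ± 0.10) and Dnaja2 (-0.86 ± 0.10).

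Genes of the secretory path had more falls than rises. Of 62 genes of translocation, glycosylation and folding in the endoplasmic reticulum 11 fell (17.7%) and 3 rose. Srp72 (-0.82 ± 0.08), a protein of the signal recognition particle, and Sec62 (-0.72 ± 0.09), a translocon partner, fell with Sec61a1, the channel-forming subunit (-0.56). The rises were the small subunits Ssr4 and Sec61b (0.50 ± 0.12) and the cyclophilin Ppib. Rises were reduced to 1 without control replicate 2, control replicate 3 or cKO replicate 2. Of 63 genes of COPI, COPII and Golgi traffic 10 fell (15.9%) and none rose, and 7 to 12 fell without 1 pair. Copa, the alpha subunit of the COPI coat, fell by 0.87 ± 0.09 and Cog1, of the Golgi tethering complex, by 0.78. In the actin cytoskeleton, with 79 genes, 7 fell (8.86%, against 6.63%) and 4 rose (5.06%, against 2.74%). Flna (filamin A, -0.89 ± 0.11), Ezr (ezrin, -0.84 ± 0.12) and Capza2 (-0.72) led the falls, of which 4 were called without control replicate 1, control replicate 2 or cKO replicate 1. The rises were Tmsb10 (a thymosin, 0.71 ± 0.21), Myl6 (a myosin light chain, 0.86 ± 0.25), Arhgdib and Sept6 (0.49 ± 0.12), none of them called without control replicate 1, control replicate 2 or cKO replicate 1. The list's rises numbered 1 without control replicate 3 and 2 without cKO replicate 2.

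Several of the genes named above were called in few of the 6 fits that left out a sample pair. Tmsb10 was called in none of them. Acat1, Atf4, Cmpk1, Guk1, Luc7l3, Srsf5, Srsf6, Larp1, Arhgdib, Myl6, Mcm3, Mcm4, Traf3, Pgls, Ppib, Ppan, Elovl6 and Oaz1 were called in 1 of them. Timm44, Tomm20, Oxa1l, Tgs1, Tgfb1, Plcg1, Ndufa6, Ndufa10, Eif3a, Eif3g, Eif3i, Aimp1, Adk, Aaas and Zbtb7b were called in 2, and Sec61b, Relb, Sept6, Snrpe, Cd40lg, Crlf2, Lcp2, Hsd17b10 and Rsl24d1 in 3. The other called genes named up to here were called in 4 or more.

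Of the 683 tested genes outside the reference that are not protein-coding, 45 rose (6.59%) and 6 fell (0.878%), and for non-coding RNAs the ratio compares library counts and does not measure translation. The rises were mostly of small RNAs. Of 84 lincRNAs 2 rose and none fell, and of 84 antisense RNAs none rose and 1 fell. Of 103 processed pseudogenes 7 rose and none fell, and of 73 processed transcripts 6 rose and 1 fell. Of 14 snoRNA host RNAs, spliced transcripts that start with a TOP sequence and carry snoRNAs in their introns, 5 rose (35.7%) and none fell. Snhg8 rose by 1.36 ± 0.14, Dancr by 1.40 ± 0.25 and Snhg6 by 0.70 ± 0.12, with Gas5 and Zfas1 as the others. Total RNA of the 5 was lower in the cKO by 0.98 to 2.60 on the log2 scale, and 3 of the 5 were called without control replicate 3, cKO replicate 1 or cKO replicate 2. The 163 tested snRNAs, snoRNAs and scaRNAs, grouped after their values were seen, had 26 rises (16%) and no falls, with medians of 0.86 for the ratio, -0.24 for total RNA and 0.59 for RPF. Most are shorter than the mRNAs and highly structured, and protected fragments of such RNAs need not come from ribosomes.

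The transcripts of the called genes were compared in features that the test did not use, with 1 annotated GENCODE vM21 transcript per protein-coding gene and no test, since genes are not replicates. Coding regions had a median length of 1659 bases in the genes that lost TE, 998 in those that gained it and 1368 in those without a call. With the genes in 4 equal groups by coding length, rises were 3.95% of the shortest group (864 bases or less) and 0.735% of the longest (2181 or more), while falls were 4.32% and 9.22%. The 5′ leader had a median of 134 bases in the falls, 136 in the rises and 184 in the genes without a call. An ATG in the leader was present in 38.9%, 46.3% and 52.9% of them. Single-exon genes made up 4.05% of the falls (28 genes, with Utp3 and Rrs1 of ribosome production and Ddx28 of mitochondrial ribosome assembly among them, named after their values were seen), 0.410% of the rises and 1.96% of the rest. The average log2 CPM of called genes was higher, with a median of 6.68 in falls and 6.0 in rises against 5.10 without a call, and the part of read depth in these differences was not tested.

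**Figure D5:**
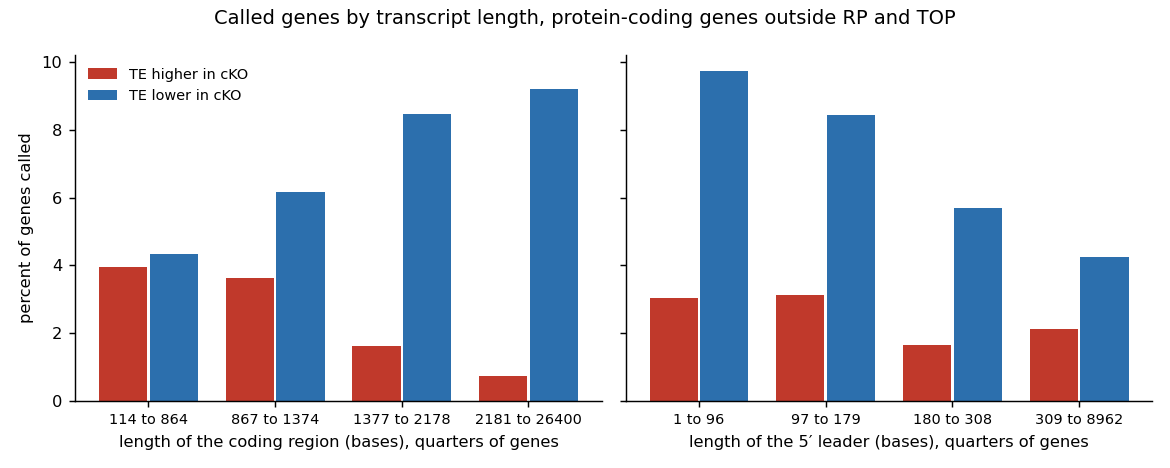
Percent of protein-coding genes outside the reference called in the TE test (y axis), in 4 equal groups of genes by coding length (left) and 5′ leader length (right), in bases. Falls go from 4.32% to 9.22% of genes as the coding region lengthens and from 9.74% to 4.25% as the leader lengthens.

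The first bases were read from the RefSeq starts on the transcript strand, which may differ from the starts used in these cells, and were available for 196 of 244 rises and 557 of 694 falls. A pyrimidine start was counted where the first base was C and each of the next 4 was C or T, which holds for 2.51% of all 32851 starts in the table. It was present at 2.82% of the starts of genes with a rise, 2.12% with a fall and 2.09% without a call. Ribosomal protein genes had it at 20.3% of starts, with 59 of 80 genes matched, and the other TOP genes at 20.0%, with 19 of 26 matched. Read from RefSeq starts, the count thus misses most of the known TOP genes, and nothing is drawn from it for the genes outside the reference. The first base was G at 46.4%, 51.4% and 48.0% of starts in rises, falls and genes without a call, A at 29.0%, 24.4% and 28.0%, and C at 14.9%, 15.6% and 14.3%.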

How the data were processed

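Total cytoplasmic RNA and RPF were prepared from cells lysed after cycloheximide and sequenced. The authors removed adapters with cutadapt, discarded ribosomal reads with Bowtie and aligned to mm10 with STAR 2.5.2b, whose deposited tables hold raw counts per gene. The reverse-strand column was used, since 2.08 to 8.21% of reads lay outside genes there against 35.5 to 66.6% on the other strand. The 4 rows per file that name no gene were left out. STAR counts uniquely aligned reads, so genes with near-identical copies can be underestimated. A further deposited table holds the authors' own fold changes and p-values and was not used.

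The interaction was fitted with edgeR 4.0.16 (quasi-likelihood, TMM within assay, R 4.3.3) on genes with over 1 CPM in at least 3 of 6 samples of each assay, with Benjamini-Hochberg adjustment. It stands in for the study's own TE tool, which was not run here. On simulated counts the fit was tested for recovery of known changes. Named genes are the 12 rises and 12 falls with the smallest p (protein-coding, average log2 CPM of at least 4, genotypes apart), up to 3 called members per list and direction, and Rnmt. Some further called members are named beside these, Larp1, Acin1, Luc7l3, Myl6, Gas5 and Zfas1 among them. The members and the 68 functional lists were chosen with earlier results of these data known. DESeq2 1.42.0 and other filters, scalings and sample sets were tried as alternatives.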

Additional observations from a re-analysis of the deposited data

How the results depend on the processing

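Over all 10668 tested genes, reference included, 346 rose and 701 fell in TE. Leaving out 1 sample pair at a time gave 122 to 367 rises and 415 to 812 falls. The other 10 settings kept both counts within 1.5 times: rises ranged from 259 (library size without TMM) to 493 (average log2 CPM of at least 4), and falls from 635 to 888. A like count need not be of the same genes: outside the reference, the fit without a filter on low counts, which tested 32618 genes, called 284 rises and 887 falls, among them 126 of the 289 rises and 595 of the 700 falls of the filtered fit. In the other 9 settings 203 to 287 of the 289 and 619 to 692 of the 700 were called, and in the 6 fits without a pair 60 to 214 and 406 to 609. Rnmt stayed between -1.68 and -1.58 and below the threshold in all 16 settings. The fixed rule for naming genes gave 222 called genes. Not all of them are given above, and some genes named above, such as Larp1, Luc7l3 and Myl6, are not among them. Of the 222, 168 were called under all 10 settings that kept every sample, and 123 also in all 6 fits without a pair. The 12 leading falls were called in all 16 settings, and so were the 12 leading rises except Pdha1, not called without a filter on low counts. Whether same-numbered total RNA and RPF samples come from 1 culture is not stated: their deviations correlated at 0.161, 0.234 and 0.394 in control and 0.0756, 0.374 and 0.229 in cKO, each sample best with its own number, as a hint from the data. A replicate block of the sample number within each genotype gave 426 rises and 777 falls, and a replicate block of the number across genotypes 313 and 635. RPF of cKO replicate 3 held 4123271 reads on genes, the fewest of all samples, and without that pair the counts were 367 and 812. The part of depth in the counts was not tested.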
